A study of Arabidopsis thaliana with 18 samples.

Results

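The genes of suberin synthesis and export were followed in Arabidopsis thaliana seedlings that carried insertions in transparent testa (tt) loci, which the labels call putative mutants, and in the wild type Col-0. The 10 members were GPAT5 (AT3G11430), CYP86A1 (AT5G58860), CYP86B1 (AT5G23190), FAR1 (AT5G22500), FAR4 (AT3G44540), FAR5 (AT3G44550), ASFT (AT5G41040), ABCG2 (AT2G37360), ABCG6 (AT5G13580) and ABCG20 (AT3G53510), out of 32547 Arabidopsis loci in the count tables. They were selected on how their level in Col-0 compared with every mutant library, so that contrast is described here without a test. Suberin is a polyester of fatty acids, glycerol and phenolic acids that is laid down in the walls of the root endodermis, of the periderm and of the seed coat, where it restricts the movement of water and solutes. Its fatty monomers are hydroxylated, reduced or esterified inside the cell and exported by half-size ABCG transporters. GPAT5, CYP86A1 and ASFT are established marker enzymes of this pathway in roots.

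Each of the 16 mutant libraries came from a different T-DNA insertion allele. They were ban-6 and ban-7, tt1-4 and tt1-5, tt3-3 and tt3-4, tt5-3 and tt5-4, the 6 alleles tt8-7 to tt8-12, and ttg1-23 and ttg1-24. By the line names in the labels, 9 came from the SALK collection, 6 from SAIL and 1, tt8-7, from GK. BAN, TT3 and TT5 encode enzymes of flavonoid synthesis, and TT1, TT8 and TTG1 encode regulators of it. All groups, Col-0 included, had been shaken for 4 days in 3% sucrose under 24 h of light. The labels name the material seedlings and give neither the zygosity of the lines nor the age at the start. Each allele had 1 library and stood as 1 sample of its locus. Col-0 had 2 files, whose difference was smaller than sampling noise, and they were counted as 1 sample. In whole seedlings, fewer cells of a type and less RNA per cell cannot be told apart.

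The total count per library ran from 8057534 to 27145377, so 3 counts correspond to 0.111 to 0.372 CPM (counts scaled to 1000000 per library). The targeted gene was below every other library in both tt5 alleles (4.23 to 4.5 CPM, against 43.4 CPM in Col-0) and in both ttg1 alleles (0 to 15.9 CPM, against 30.4 CPM in Col-0). BAN and TT1 did not exceed 0.0949 CPM in any library, which checks nothing. DFR, the gene of TT3, was at 211.4 to 274.3 CPM in the libraries labelled tt3, against 0 to 264.4 CPM in the other mutants and 63.2 CPM in Col-0. TT8 was at 6.97 to 101.8 CPM in those labelled tt8, against 0.248 to 36.9 CPM in the other mutants and 11.5 CPM in Col-0. Counts over a whole gene do not show whether its transcript is interrupted by an insertion, and the tt3 and tt8 names are those of the labels throughout. The seedlings held a wide range of seed transcripts, with OLEO1, an oil body protein of embryos, at 12.2 to 1945.5 CPM in the mutants and at 53.7 CPM in Col-0.

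Upstream sequences of 5 members are shown as examples of genes that varied together among the mutants. Others that did so, such as ASFT (r = 0.92 with GPAT5), are not shown. Each window holds the 250 bases before the annotated start in the RefSeq annotation of TAIR10.1, printed 5′ to 3′ on the strand of the gene. The windows lie at chr3:3595444-3595693 on the plus strand (GPAT5), chr5:23768112-23768361 on the minus strand (CYP86A1), chr3:16123176-16123425 on the plus strand (FAR4), chr3:16137326-16137575 on the plus strand (FAR5) and chr5:4370442-4370691 on the plus strand (ABCG6). Capitals mark matches, on either strand, to ACGTG (the core of abscisic acid response elements), to the AC elements ACCNACC and ACCNAAC, or to TTGAC (the core of the W box).
GPAT5: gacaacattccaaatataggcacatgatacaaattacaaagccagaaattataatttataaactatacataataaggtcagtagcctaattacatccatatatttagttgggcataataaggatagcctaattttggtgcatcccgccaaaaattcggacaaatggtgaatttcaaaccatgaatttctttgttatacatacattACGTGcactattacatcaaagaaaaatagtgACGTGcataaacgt
CYP86A1: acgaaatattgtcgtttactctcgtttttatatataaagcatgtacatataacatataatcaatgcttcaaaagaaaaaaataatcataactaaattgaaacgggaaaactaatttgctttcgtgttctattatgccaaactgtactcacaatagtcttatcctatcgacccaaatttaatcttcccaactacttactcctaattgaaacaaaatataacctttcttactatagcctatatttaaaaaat
FAR4: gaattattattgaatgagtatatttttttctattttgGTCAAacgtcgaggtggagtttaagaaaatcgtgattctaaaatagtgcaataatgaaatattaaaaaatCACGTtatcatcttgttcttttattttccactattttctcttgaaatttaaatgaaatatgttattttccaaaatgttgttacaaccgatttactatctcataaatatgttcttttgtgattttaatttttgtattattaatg
FAR5: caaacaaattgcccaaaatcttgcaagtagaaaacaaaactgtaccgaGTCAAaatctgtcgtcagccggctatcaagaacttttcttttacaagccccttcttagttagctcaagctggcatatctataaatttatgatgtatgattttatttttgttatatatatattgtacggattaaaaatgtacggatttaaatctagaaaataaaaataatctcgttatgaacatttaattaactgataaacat
ABCG6: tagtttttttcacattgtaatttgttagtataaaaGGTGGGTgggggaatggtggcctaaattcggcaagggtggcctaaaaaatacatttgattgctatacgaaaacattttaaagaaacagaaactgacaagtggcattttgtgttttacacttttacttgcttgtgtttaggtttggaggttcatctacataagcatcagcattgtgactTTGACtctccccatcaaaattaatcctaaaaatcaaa
GPAT5 held ACGTG at -45 and -14, counted from the annotated start, and FAR4 held it at -143. CYP86A1 matched none of the 4 motifs in this window. ACGTG was found in 3 of the 10 members and in 22.9% of the 27443 windows of protein-coding genes. TTGAC was found in 8 of the 10 members and in 44.9% of all these windows. ACCNACC was present in 2 members, ABCG2 and ABCG6, and in 6.1% of all windows, and ACCNAAC in 2 members, CYP86B1 and ASFT, and in 14.5%. The motifs did not overlap each other in the printed windows, and a match is a description of letters, not of a binding site. The FAR4 window overlaps the annotated lncRNA AT3G06845, which had 0 counts in every library.

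GPAT5, which transfers long-chain acyl groups onto glycerol 3-phosphate, lies at chr3:3595694-3597952 in TAIR10.1. It stood at 22.2 and 11.1 CPM in ban-6 and ban-7, at 11.9 and 12.5 CPM in tt1-4 and tt1-5, at 20.1 and 16.2 CPM in tt3-3 and tt3-4, and at 20.5 and 22.5 CPM in tt5-3 and tt5-4. The 6 tt8 libraries ran from 10.0 CPM through a median of 15.0 CPM to 18.2 CPM, ttg1-23 and ttg1-24 were at 19.1 and 14 CPM, and Col-0 was at 56.5 CPM. No mutant library came near the Col-0 level of GPAT5, which was 2.51 times the highest of them. CYP86A1, the hydroxylase that acts on the terminal carbon of long-chain fatty acids, was at 36.3 CPM (tt1-5) to 75.8 CPM (ttg1-23) in the mutants, with a median of 54.8 CPM, and at 174.6 CPM in Col-0. CYP86B1 does the same to very-long-chain fatty acids and was at 10.3 to 31.0 CPM in the mutants, with a median of 19.5 CPM, against 58.4 CPM in Col-0. ASFT, which attaches ferulic acid to the hydroxylated fatty acids, was at 25.2 to 100.6 CPM in the mutants, with a median of 46.5 CPM, against 137.1 CPM in Col-0. For these 4 enzymes all 16 mutant libraries were below Col-0 and the mutant median was 0.284 to 0.339 times the Col-0 level.

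The 3 fatty acyl reductases, which make the primary fatty alcohols of suberin, lay closer to Col-0. FAR1 was at 87.8 CPM (tt1-4) to 168.9 CPM (tt3-3) in the mutants, with a median of 123.7 CPM, and at 247.8 CPM in Col-0. FAR4 was at 42.7 and 16.3 CPM in ban-6 and ban-7, at 14.7 and 25.2 CPM in tt1-4 and tt1-5, at 35.6 and 27.9 CPM in tt3-3 and tt3-4, at 28.0 and 41.4 CPM in tt5-3 and tt5-4, at 15.2, 22.6 and 29.5 CPM as the lowest, median and highest tt8 level, at 38.7 and 20.1 CPM in ttg1-23 and ttg1-24, and at 42.5 CPM in Col-0. FAR5 was at 31.8 and 6.89 CPM in ban-6 and ban-7, at 11.4 and 15.8 CPM in tt1-4 and tt1-5, at 21.3 and 13.7 CPM in tt3-3 and tt3-4, at 16.9 and 30.4 CPM in tt5-3 and tt5-4, at 9.15, 13.9 and 22.2 CPM as the lowest, median and highest tt8 level, at 24.1 and 15.6 CPM in ttg1-23 and ttg1-24, and at 31.0 CPM in Col-0. FAR4 and FAR5 thus reached the Col-0 level in ban-6 and came close to it in tt5-4, while 15 of 16 mutants were below Col-0 for each gene. FAR4 and FAR5 are near neighbours on chromosome 3 (chr3:16123426-16128030 and chr3:16137576-16142270, both on the plus strand). Their coding sequences were identical at 74.4% of 1475 aligned bases, and FAR1 and FAR4 matched at 77.3%. Of the 50-base windows of FAR5 exons 0.69% occurred elsewhere in the genome, against 0% for FAR1 and FAR4, and the series' design gives single-end reads of 50 bases.

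Among the half-size transporters, ABCG6 was at 20.8 CPM (ban-7) to 62.8 CPM (tt5-4) in the mutants, with a median of 32.9 CPM, against 113.5 CPM in Col-0. ABCG20 was at 20.2 to 36.8 CPM in the mutants, with a median of 31.6 CPM, against 79.2 CPM in Col-0. ABCG2, the third transporter named with them in suberin export, had 0 to 5 counts in a mutant library (0 to 0.237 CPM) and 0 counts in both Col-0 files, which allow up to 0.185 and 0.189 CPM. ABCG2 was therefore near or below the detection limit in these seedlings and was left out of the tests by the low-count filter, which the other 9 members passed. Annotated genes overlap FAR1 (AT5G22505), FAR4 (AT3G06845), ASFT (AT5G41050) and ABCG2 (AT2G37362), and the strand setting of the counting is not given in the sources used here. These overlapping genes had at most 1.34 CPM in any library.

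**Figure D1:**
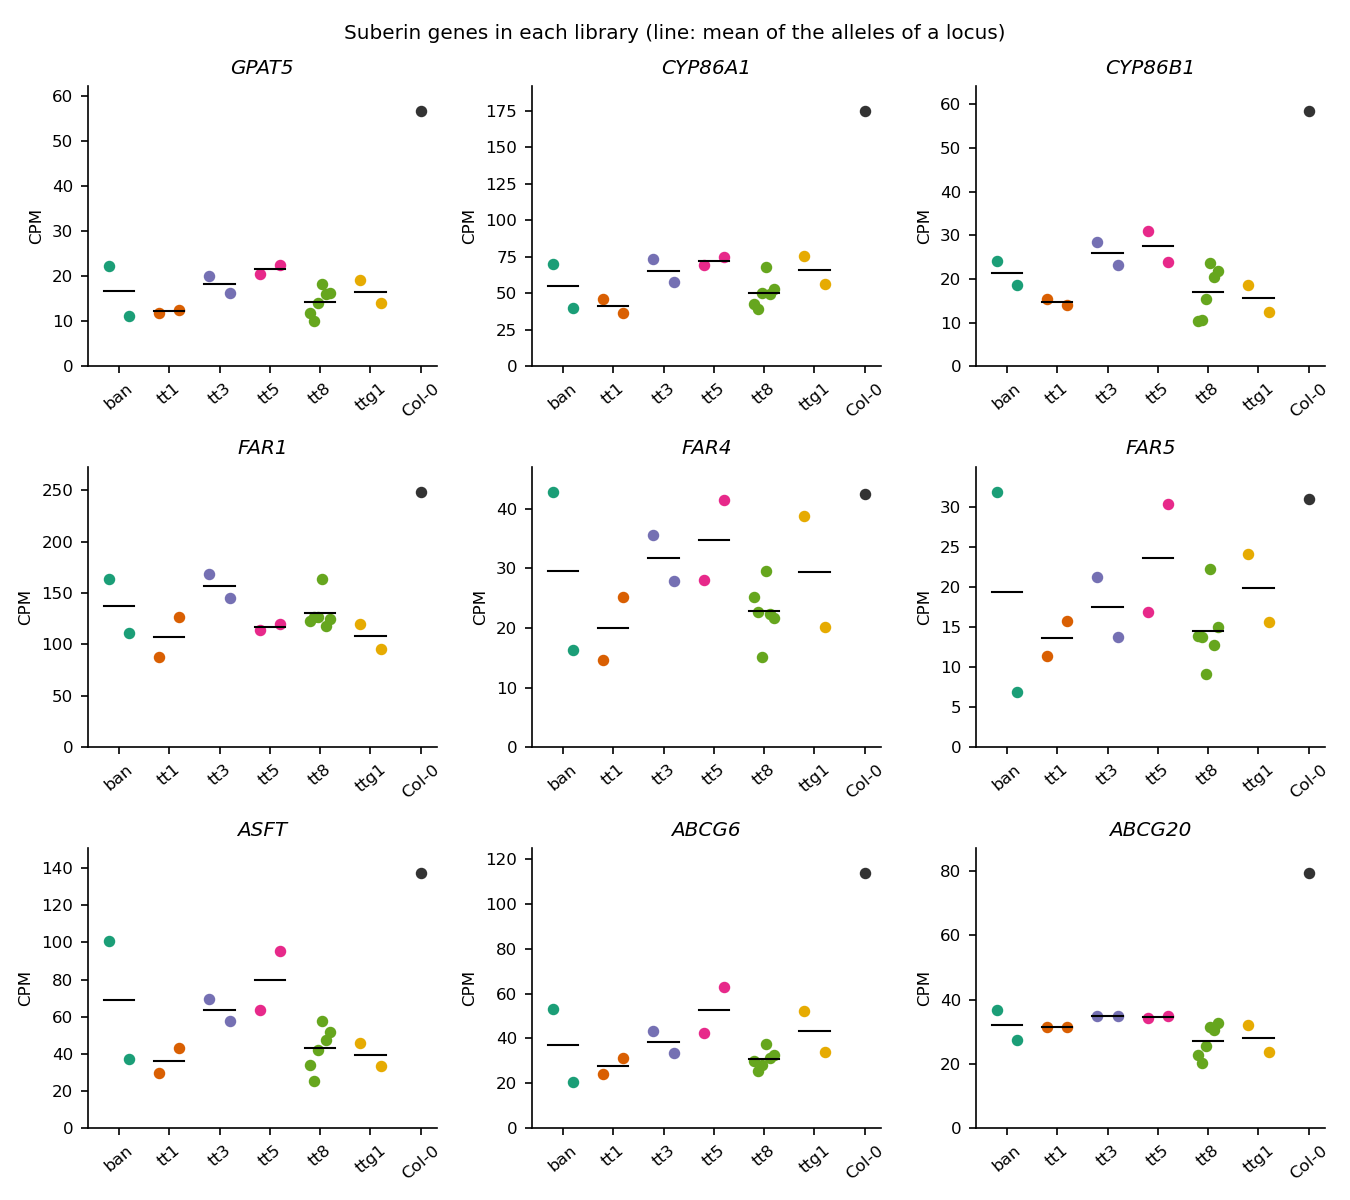
CPM of 9 suberin genes in each library, 1 point per allele of a mutant locus and 1 point for Col-0, with a line at the mean of the alleles; each vertical axis starts at 0. Col-0 lies above every mutant point for 7 genes, while FAR4 and FAR5 in ban-6 (42.7 and 31.8 CPM) lie level with Col-0 (42.5 and 31.0 CPM).

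Col-0 was above all 16 mutant libraries at 7 of the 9 tested members, and at 10.8% of the 20747 genes tested. This contrast selected the members, so nothing is read from that share. The exceptions FAR4 and FAR5 rest on ban-6 alone, without which Col-0 was above every remaining mutant at 9 of 9 members, and TMM scaling also gave 9. The log2 ratio of the mutant median to Col-0 was lowest for GPAT5 (-1.81), ABCG6 (-1.79) and CYP86A1 (-1.67), followed by CYP86B1 (-1.58), ASFT (-1.56) and ABCG20 (-1.33), and was nearest to 0 for FAR5 (-1.02), FAR1 (-1.0) and FAR4 (-0.75). Its median was -1.56 over the 9 members and 0.12 over all tested genes that reached 1 CPM in a mutant library or in Col-0. Col-0 is 1 sample, so the ratios carry no error of their own beyond the spread of the mutants, and both Col-0 files had Windows line ends, as had tt8-8 and tt8-11 alone among the mutants. The part of a difference in handling between Col-0 and the mutants was not tested and cannot be told apart from the genotype.

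Per kilobase of exon, FAR1 had the highest level in the mutants (median 54.5 CPM per kb), followed by CYP86A1 (29.4), ASFT (25.5), ABCG6 (13.1), ABCG20 (11.1), FAR4 (8.58), CYP86B1 (8.40), GPAT5 (8.04), FAR5 (5.16) and ABCG2 (0.0297). The mutant ranges of neighbours in this order overlapped, except those of FAR5 and ABCG2. Col-0 had FAR1 (109.3 CPM per kb), CYP86A1 (93.7), ASFT (75.2) and ABCG6 (45.2) at the same places, followed by GPAT5 (28.3), ABCG20 (27.9), CYP86B1 (25.1), FAR4 (14.5) and FAR5 (10.4).

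The other genes of suberin, cutin and wax synthesis give the setting. Of 7 other suberin genes, Col-0 was above every mutant library at 5, against 10.8% of all tested genes. The median log2 ratio of their mutant median to Col-0 was -1.16. KCS2, a condensing enzyme of very-long-chain fatty acid synthesis, was at 7.89 to 31.6 CPM in the mutants and at 43.9 CPM in Col-0, and GPAT7, a close relative of GPAT5, was at 4.14 to 14.1 CPM against 27.1 CPM in Col-0. AT2G48130 was at 9.95 to 61.8 CPM in the mutants and at 74.0 CPM in Col-0, and FACT, which esterifies fatty alcohols with caffeic acid, was at 19.4 to 88.3 CPM against 121.3 CPM in Col-0. Of 10 regulators of suberin genes, Col-0 was above every mutant at 2, MYB9 (0.501 to 2.57 CPM in the mutants, 3.65 CPM in Col-0) and NAC058 (4.59 to 9.83 CPM in the mutants, 10.5 CPM in Col-0). The remaining 8 had Col-0 inside the mutant range. Beside the 10.8% of all tested genes, nothing is read from 2 of 10 regulators.

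Cutin is the related polyester of the shoot surface. Of 12 tested cutin genes, Col-0 was above every mutant library at 8, against 10.8% of all tested genes. Their median log2 ratio was -1.19. The acyltransferase GPAT4 was at 28.3 to 76.4 CPM in the mutants and at 149.8 CPM in Col-0, and its close relative GPAT8 at 1.5 to 9.55 CPM against 14.5 CPM in Col-0. CYP86A2, a hydroxylase of cutin monomers, was at 46.5 to 105.7 CPM in the mutants and at 236.4 CPM in Col-0, and the acyl-CoA synthetase LACS2 at 7.95 to 38.4 CPM against 53.6 CPM in Col-0. Of 6 tested wax genes 4 were above every mutant in Col-0, again against 10.8% of all tested genes. These were CER6, a condensing enzyme (21.4 to 157.5 CPM in the mutants, 202.7 CPM in Col-0), KCS1 (19.4 to 52.7 CPM, against 85.5 CPM in Col-0), CER1 (14.7 to 141.6 CPM, against 149.3 CPM in Col-0) and CER3 (13.8 to 67.8 CPM, against 69.8 CPM in Col-0).

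**Figure D2:**
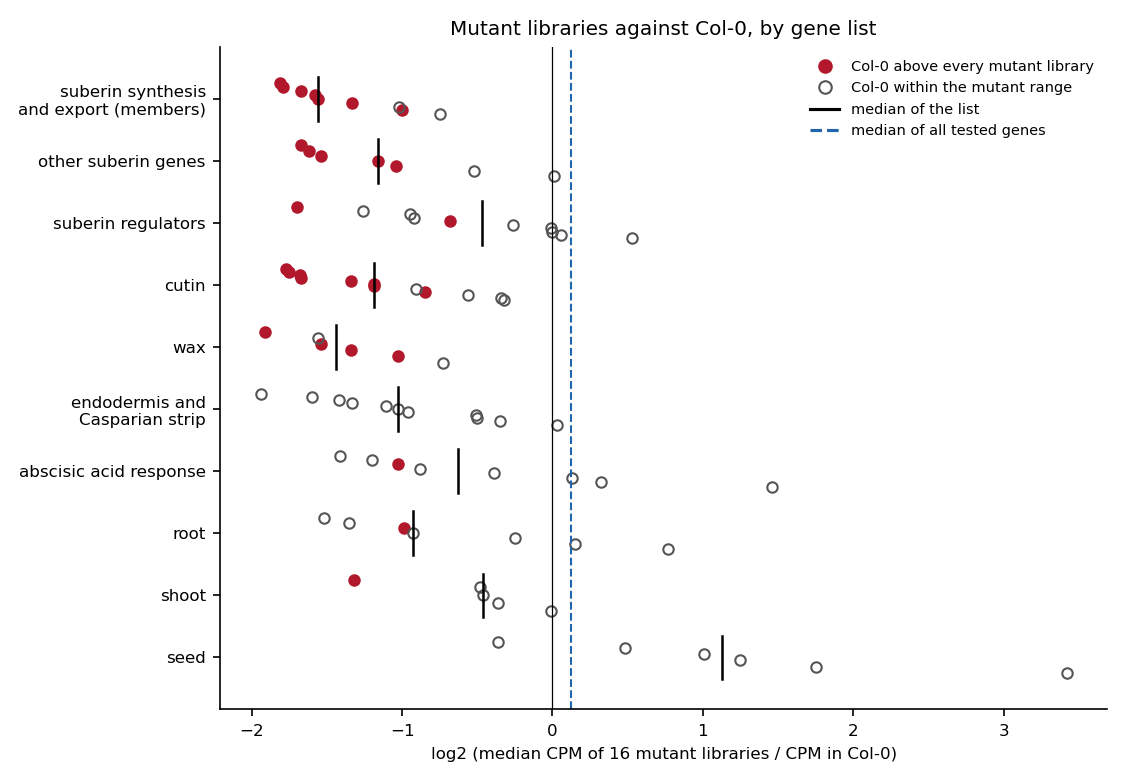
Log2 ratio of the median CPM of the 16 mutant libraries to the CPM in Col-0, 1 point per tested gene that reached 1 CPM. Lines give the median of each list and of all tested genes that reached 1 CPM. The suberin members have a median of -1.56, the cutin genes of -1.19 and the seed genes of 1.13, and filled points mark genes at which Col-0 is above every mutant library.

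Markers of the endodermis, the cell layer that carries most suberin in young roots, had a median log2 ratio of the mutant median to Col-0 of -1.03 over 11 markers, with single markers from -1.94 to 0.03. At 0 of the 11 was Col-0 above every mutant, against 10.8% of all tested genes. For CASP1, CASP2, PER64 and AT1G61590, however, 15 of 16 mutants were below Col-0, with ban-6 the exception as it was for FAR4 and FAR5. Their part in the levels of the members was not tested. The summed level of CASP1 to CASP5, membrane proteins that place the Casparian strip, ran from 4.44 CPM in ban-7 to 134.6 CPM in ban-6, with a median of 44.8 CPM, and was 95 CPM in Col-0, above 15 of 16 mutants. None of these 5 markers was at 0 in a library. The summed endodermal list spanned 73.2 to 369.8 CPM in the mutants and was 294.4 CPM in Col-0.

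The library nearest to Col-0 in the CASP sum, picked after the values were seen, was tt5-4, with 94.9 CPM against 95 CPM in Col-0. Its OLEO1 level was also similar, 59.2 CPM against 53.7 CPM in Col-0. In this pair FAR4 and FAR5 were each at 0.98 times the Col-0 level, and GPAT5 was at 0.40, CYP86B1 at 0.41, CYP86A1 at 0.43, ABCG20 at 0.44, FAR1 at 0.48, ABCG6 at 0.55 and ASFT at 0.70 times. These are the levels that selected the members, in a single mutant library, so nothing is read from the split. Within a library, the ratio of CYP86A1 to GPAT5 counts was 2.90 to 4.04 in the mutants and 3.09 in Col-0, that of FAR4 to FAR5 was 1.29 to 2.36 in the mutants and 1.37 in Col-0, and that of ABCG6 to ABCG20 was 0.76 to 1.80 in the mutants and 1.43 in Col-0. Col-0 lay inside the mutant range for these 3 ratios. The ratio of FAR4 to GPAT5, the members with the ratios to Col-0 nearest to and farthest from 0 on the log2 scale, was 1.08 to 2.27 in the mutants and 0.75 in Col-0, a difference that follows from the contrast that selected the members.

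Whether the members differed between the mutated loci was tested for each locus against the mean of the other 5, a contrast that holds no Col-0 level. Both tt1 alleles were SALK lines and both tt3 alleles SAIL lines, and the part of the collection in these contrasts was not tested. With edgeR's quasi-likelihood test and adjustment over 20747 genes, 0 of 9 members passed 0.05 in any of the 6 contrasts, and 0 in the test of any difference among the loci. The share of all tested genes that passed was 0% for ban, tt3, tt5, tt8 and the test of any difference, 0.14% for tt1 and 0.959% for ttg1. DESeq2 also called 0 members in each, while it called 3 genes in tt5 and 1156 in ttg1 over the whole table. Unadjusted p-values under 0.05 were reached by 4 members in tt5 (2.11% of all genes), 2 in tt1 (11.5%), 1 in tt3 (4.39%), 1 in the test of any difference (9.06%) and 0 in ban, tt8 and ttg1. The 4 members of tt5 correlated with each other at r = 0.56 to 0.92 over the mutants, so they are not separate results. The number of members under 0.05 unadjusted in tt5 was 3 by DESeq2 and 1 with a term for the line ends of the files.

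The intervals, which are not adjusted for the number of contrasts, show which sizes remain possible. Those printed for tt5 and tt1 belong to the members with an unadjusted edgeR p under 0.05, so they leave out 0 by that choice. The intervals of the other members in tt5 and tt1 held 0, such as -0.49 to 0.23 for FAR1 in tt5 and -0.37 to 0.29 for ABCG20 in tt1. In tt5, ASFT averaged 79.7 ± 22.5 CPM (SD, n = 2) and its log2 fold change over the other loci was 0.70 (SE 0.30, 95% interval 0.05 to 1.36, edgeR adjusted p = 0.9999). ABCG6 (0.58, interval 0.03 to 1.12), CYP86B1 (0.55, interval 0.02 to 1.09) and GPAT5 (0.46, interval 0.01 to 0.92) pointed the same way in tt5, with an edgeR adjusted p of 0.9999 for each. In tt1, CYP86A1 averaged 41.3 ± 7.11 CPM (SD, n = 2) and its log2 fold change was -0.62 (SE 0.21, interval -1.06 to -0.17, edgeR adjusted p = 0.276), and that of GPAT5 was -0.54 (interval -1.04 to -0.05, edgeR adjusted p = 0.392). In the libraries labelled tt8, with 6 alleles the best replicated group, the intervals were narrower. ABCG20 averaged 27.2 ± 5.18 CPM there (SD, n = 6), with a log2 fold change of -0.22 (SE 0.10, interval -0.44 to 0.00, edgeR adjusted p = 0.9999). Outside the members, 1 of the 7 other suberin genes was called, and it is named for that reason. ABCG1, another half-size transporter of suberin export, was at 240.4 and 286.2 CPM in ttg1-23 and ttg1-24 against 102.7 to 204.0 CPM in the other mutants (log2 fold change 0.75, edgeR adjusted p = 0.049). It stood at 246.7 CPM in Col-0, and the call was lost in 14 of 24 alternatives, with an edgeR adjusted p of 0.761 without ttg1-24.

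**Figure D3:**
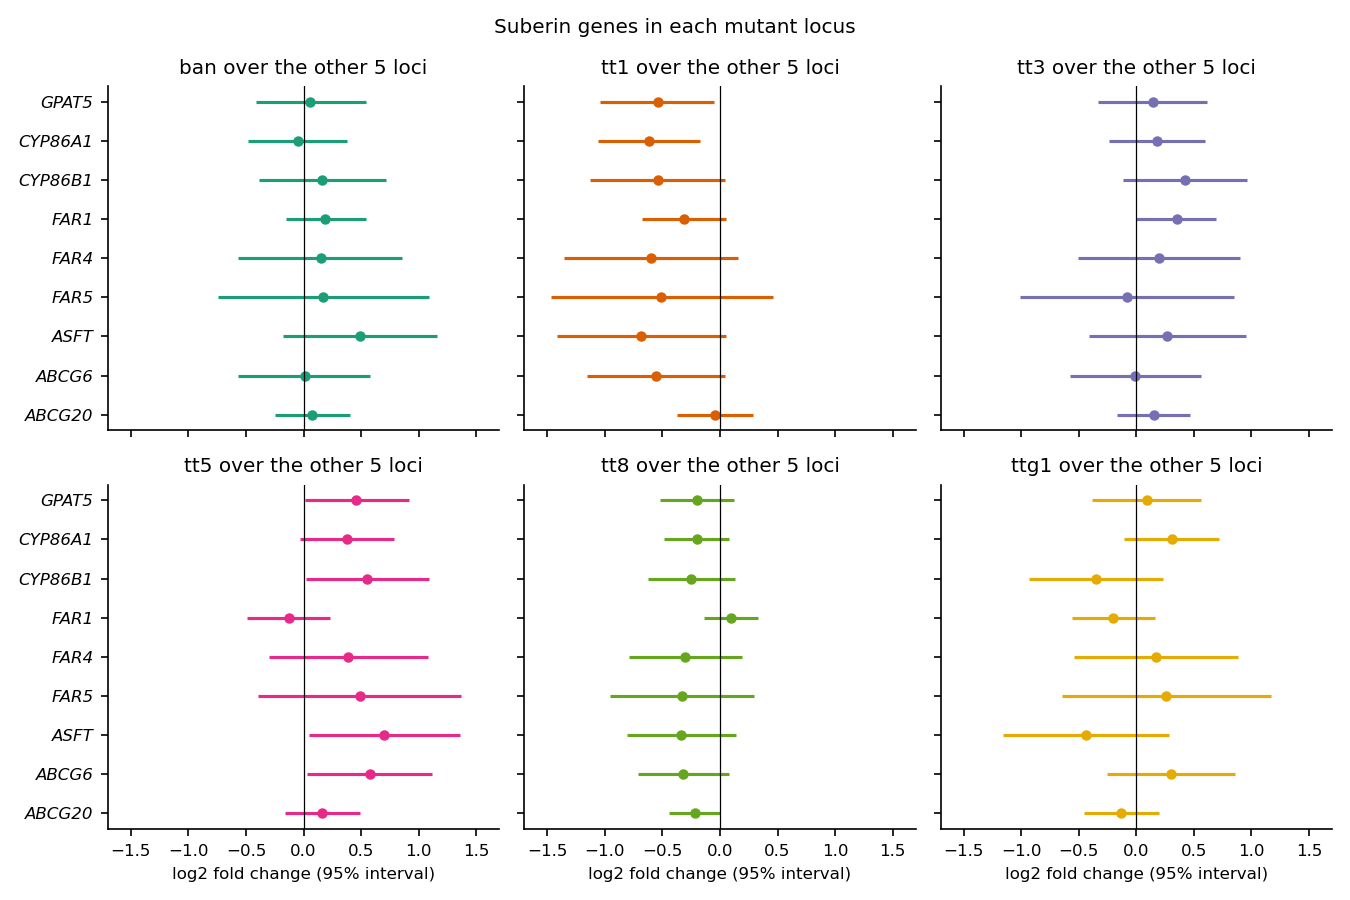
Log2 fold change of each suberin gene in the alleles of 1 locus over the mean of the other 5 loci, with its 95% interval from edgeR. The points of tt5 lie at or above 0 except FAR1 (-0.13), those of tt1 lie below 0, and every interval of ban, tt8 and ttg1 reaches 0.

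Alleles of the same locus also differed from each other. All 9 tested members were higher in ban-6 than in ban-7, by 1.29-fold for CYP86B1 to 4.62-fold for FAR5, while 48.5% of all tested genes were higher in ban-6. All 9 were also higher in ttg1-23 than in ttg1-24, by 1.25-fold for FAR1 to 1.92-fold for FAR4, and 67.7% of all tested genes were. In tt3-3 the members exceeded tt3-4 by up to 1.55-fold (FAR5), with ABCG20 at a ratio of 1.00, and 61.1% of all tested genes were higher in tt3-3. The other pairs were mixed. Only 2 of 9 members were higher in tt1-4 than in tt1-5 (53.1% of all tested genes), and 1 of 9 in tt5-3 than in tt5-4 (53.3%). Among tt8 alleles, tt8-10 was above tt8-7, tt8-8, tt8-9 and tt8-11 at all 9 members. It was above tt8-12 at 8 of 9, and at 53.7% of all tested genes. Of all tested genes 37.2%, 38.1% and 44.2% were higher in tt8-7, tt8-8 and tt8-9 than in tt8-10, and 51.1% were higher in tt8-10 than in tt8-11. Over the 16 mutants the mean rank of the members was 2.0 in ban-6 and 3.1 in tt3-3 and tt5-4, and was lowest in the order in ban-7 (13.7), tt1-4 (13.6) and tt8-8 (13.3). FAR5 and ASFT spread most, with a standard deviation of log2(CPM + 1) of 0.55 each over the mutants, against a median of 0.25 and 0.23 for genes of like level. ABCG20 (0.25) and FAR1 (0.26) were close to genes of like level (0.23 and 0.25).

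The members varied together from library to library. Over the 16 mutant libraries all 36 pairs of the 9 tested members correlated positively, with Pearson's r of log2(CPM + 1) between 0.36 (FAR1 and ABCG20) and 0.93 and a median of 0.74. For comparison, the median r over all pairs of 15079 genes with a mean of at least 5 CPM was 0.05. Of those pairs 27.1% reached 0.36 and 4.55% reached 0.74. GPAT5 and CYP86A1, the acyltransferase and a hydroxylase, had r = 0.93 and Spearman's rho = 0.92, each with a permutation p of 1.0e-05, the smallest that 100000 resamples can give (7.2e-05 and 5.1e-05 adjusted over 36 relations). GPAT5 and ASFT had r = 0.92 and rho = 0.91, and FAR5 and ABCG6 had r = 0.93 and rho = 0.90, with the same smallest permutation p. The neighbours FAR4 and FAR5 had r = 0.92 and rho = 0.89 (permutation p of 1.0e-05 and 5.0e-05). In each of these 4 pairs r was at least 0.89 without the 2 libraries farthest from the median of the first gene, and at least 0.91 in the 14 files with Unix line ends, GPAT5 and ASFT (0.90) excepted. In all, 27 of 36 pairs had an adjusted permutation p under 0.05 by Pearson's r and 28 by Spearman's rho. FAR1 took part in 6 of the other 9 pairs by Pearson's r, and its r with the members ran from 0.36 to 0.61. The share of all gene pairs that would pass the same test was not computed, so nothing is read from these counts. Within the 9 SALK lines r ran from 0.14 to 0.97 and within the 6 SAIL lines from 0.37 to 0.99, and after subtraction of each locus mean from 0.27 to 0.96, positive in 36 of 36 pairs each time. The genes were chosen as parts of a single pathway, and these values describe the libraries without a cause.

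**Figure D4:**
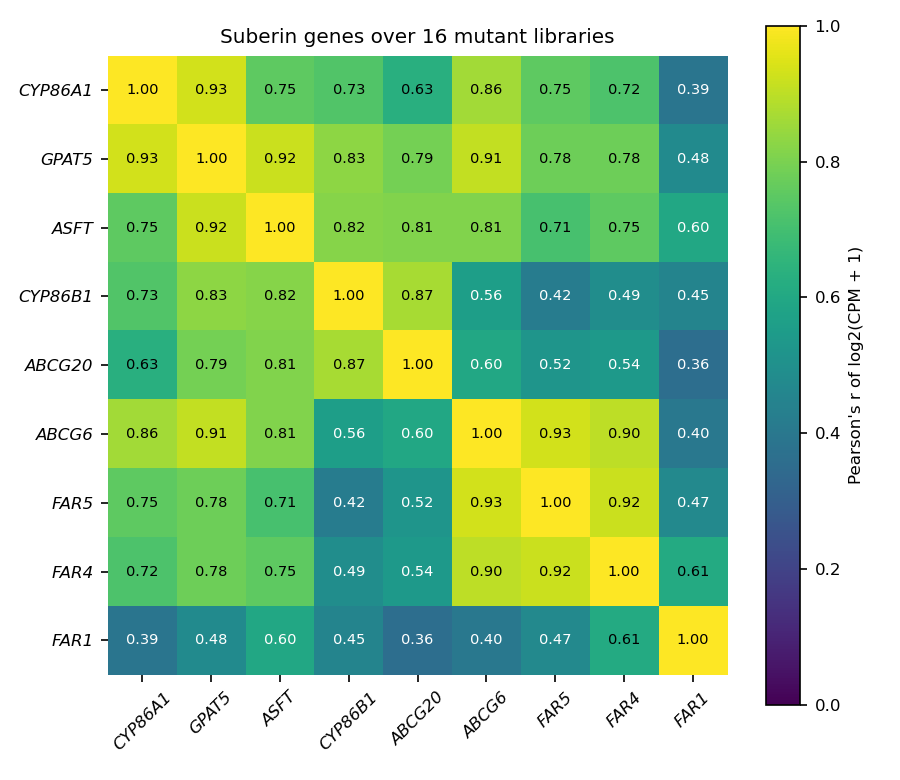
Pearson's r of log2(CPM + 1) over the 16 mutant libraries for each pair of 9 suberin genes, on a colour scale from 0 to 1. The brightest cells include GPAT5 with CYP86A1 (0.93), ASFT (0.92) and ABCG6 (0.91) and the block of ABCG6, FAR5 and FAR4 (0.90 to 0.93), and the values of FAR1 run from 0.36 to 0.61.

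Relations of the members with the Casparian strip markers were computed for all 9, and differences between these correlations were not tested. FAR5 correlated with the summed CASP level at r = 0.88 and rho = 0.84 over the 16 mutants (permutation p of 1.0e-05 and 7.0e-05, adjusted over 27 relations 2.7e-04 and 0.00189), and FAR4 at r = 0.75 and rho = 0.76 (permutation p of 5.8e-04 and 8.4e-04, adjusted 0.00576 and 0.0113). ABCG6 had r = 0.76 (permutation p of 6.4e-04, adjusted 0.00576) and rho = 0.61 (adjusted 0.0923). The other 6 members had r between 0.07 (CYP86B1) and 0.52 (GPAT5), none with an adjusted permutation p under 0.05. The share of all genes that reach such r with the CASP sum was not computed. For scale, the 95th percentile of r over all pairs of 15079 genes was 0.73, close to the values of FAR4 and ABCG6. Without ban-7 and tt3-4, the libraries farthest from the median CASP sum, r was 0.90 for FAR5, 0.91 for FAR4 and 0.78 for ABCG6. Within the SALK lines r was 0.94 for FAR5, 0.95 for FAR4 and 0.83 for ABCG6, and the other 6 members had 0.42 (CYP86B1) to 0.65 (ASFT). The order was another within the SAIL lines, with 0.91 for FAR5, 0.89 for ABCG6, 0.85 for CYP86A1, 0.79 for GPAT5 and 0.61 for FAR4. After subtraction of each locus mean all 9 members had a positive r, from 0.12 (CYP86B1) to 0.93 (FAR5), with FAR1 at 0.77, ASFT at 0.63 and GPAT5 at 0.61. With OLEO1 r ran from -0.61 (FAR5) to 0.21 (CYP86B1), and with the total count from 0.10 (FAR5) to 0.61 (CYP86B1), with 0 of these 18 adjusted permutation p-values under 0.05. The r with OLEO1 ran from -0.81 (FAR4) to -0.19 (ABCG20) within the SALK lines. Within the SAIL lines it ran from -0.27 (FAR5) to 0.72 (CYP86B1). Whether the number of endodermal cells or the stage of the seedlings had a part in these relations was not tested.

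**Figure D5:**
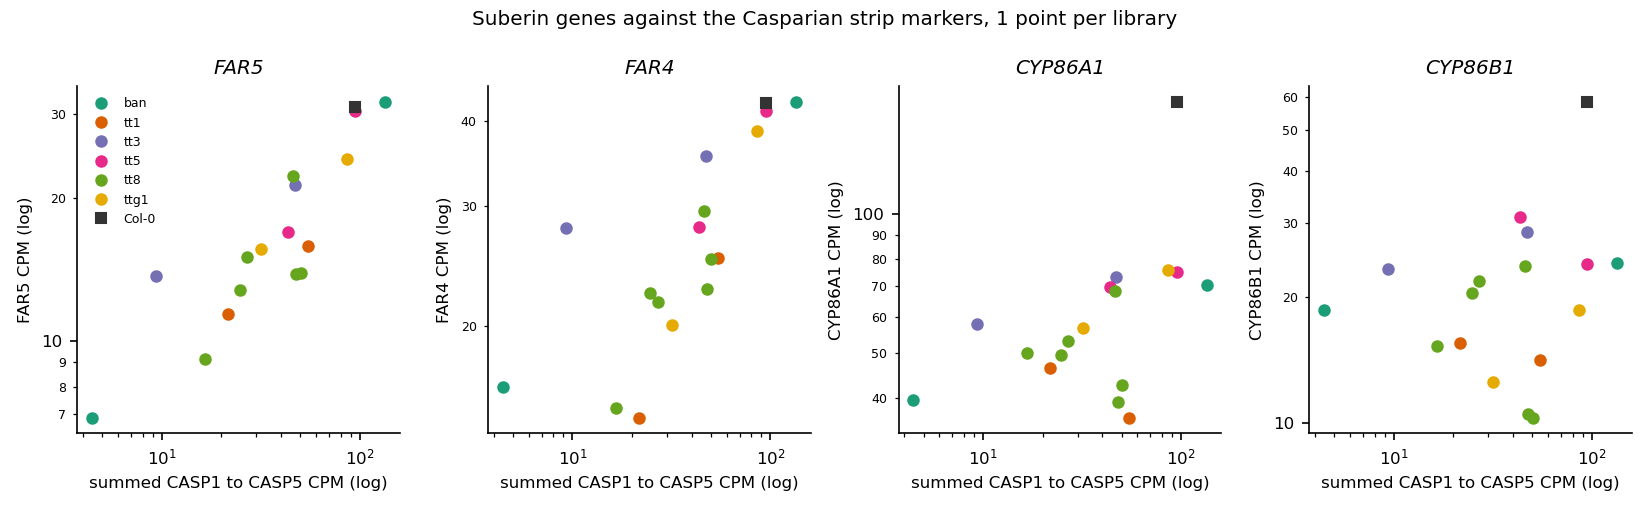
Level of FAR5, FAR4, CYP86A1 and CYP86B1 against the summed level of CASP1 to CASP5, both as CPM on log axes, 1 point per library with Col-0 as a square. The tt5-4 library lies beside Col-0 for FAR5 (30.4 CPM, against 31.0 CPM in Col-0) and FAR4 (41.4 CPM, against 42.5 CPM in Col-0) and below it for CYP86A1 (75.0 CPM, against 174.6 CPM in Col-0). This library was picked after the values were seen, and nothing is read from its place.

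The 5 genes outside the group whose log2(CPM + 1) was most like the mean standardised level of the 9 members over the 16 mutants, of 15070 with a mean of at least 5 CPM, were ABCG10 (r = 0.97), PELPK1 (0.97), AT5G57070 (0.92), NAC058 (0.90) and ABCG23 (0.90). ABCG10 and ABCG23 encode half-size ABCG transporters. ABCG10 was at 3.27 to 10.1 CPM in the mutants and at 16.8 CPM in Col-0, PELPK1 at 88.8 to 207.7 CPM against 536.5 CPM in Col-0, and ABCG23 at 4.32 to 11.6 CPM against 26.6 CPM in Col-0. AT5G57070 was at 10.2 to 26.9 CPM in the mutants and at 25.3 CPM in Col-0, inside the mutant range. Among the other suberin genes GPAT7 (r = 0.87, rank 16) and FACT (0.79, rank 82) were close in pattern. AT2G48130 (0.71), KCS2 (0.51), KCS20 (0.47), ABCG1 (0.19) and ABCG16 (0.02) were less so. Of the cutin genes CYP86A8 (0.88, rank 9), LACS2 (0.83, rank 32) and GPAT6 (0.82, rank 42) ranked ahead of FACT. The wax gene KCS1 (0.81, rank 55) did so too. The lowest r was 0.29 (ABCG11) in the cutin list and 0.36 (CER1) in the wax list. The pattern was thus not particular to suberin genes.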

How the data were processed

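The deposited values were raw counts per gene, 1 file per library. HISAT2 and the build TAIR10 are named in the submitters' processing notes. How reads were counted, with which annotation and strand setting, is not given in the sources used here. A stranded mRNA kit was used on 1 µg of total RNA, per the labels' protocols. Every file held 33939 identifiers, of which 32547 loci were used and 1392 other rows, with 0.0064% to 0.0204% of the counts, stayed out of library sizes and tests. CPM are counts per 1000000 counts over the loci.

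The Col-0 files (chi-square per degree of freedom 0.222, against 9.54 to 143 for 20 other pairs within a group) were averaged into 1 sample, which is assumed to vary like the mutant groups. Separate cultures are not mentioned in the labels, so the spread behind each p-value is that between these libraries and may be technical. Tests used edgeR 4.0.16 under R 4.3.3 (TMM, filterByExpr over the 18 files, robust quasi-likelihood F-test, two-sided Benjamini-Hochberg adjustment at 0.05) in 1 fit of 17 samples and 20747 genes. That filter replaced, after a first fit had been seen, one that counted Col-0 as 1 sample. DESeq2 1.42.0, other scalings and filters, a line-end term and leaving out each mutant library were alternatives. Correlations used log2(CPM + 1) and 100000 permutations. Poisson floors of 3 counts cover counting error only.

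The members, gene lists, motifs and tests were chosen with earlier results of these data known. Named genes were the members, up to 4 genes of each other list with Col-0 outside the mutant range or past 0.05 among loci, largest first, and the 5 genes most like the members. PER64, AT1G61590, CYP86A8, GPAT6, ABCG11, KCS20 and ABCG16 fall outside that rule and were chosen with their values in view. Gene names, coordinates and sequences came from the RefSeq annotation of TAIR10.1, in which all 32547 loci were found.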

Additional observations from a re-analysis of the deposited data

Results flagged for a closer look

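In the group of 6 tt8 libraries, 2 of the 10 members had a library that stood apart from the other 5 by Dixon's criterion at the 95% level. FAR1 was at 164.1 CPM in tt8-10, against 118.0 to 126.6 CPM in the other tt8 libraries, with a gap of 0.813 of the group's range. ABCG2 was at 0.237 CPM in tt8-11, which is 5 counts, against 0 to 2 counts in the others. Chance alone sets off this criterion in about 1 group in 20.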

How the results depend on the processing

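The count of members with Col-0 above every mutant library was 7 with plain CPM and with either Col-0 file alone, 9 with TMM or DESeq2 scaling, and 7 to 9 when 1 mutant library was left out, the 9 being reached without ban-6. No member was called in any of the 7 tests among loci under any of 24 alternatives. The log2 ratios of the mutant median to Col-0 stayed within 1 SD of their spread over the mutants for all 9 members under every alternative run, from -1.95 to -1.80 for GPAT5 and from -0.83 to -0.75 for FAR4. Of the fold changes printed for tt5, that of ABCG6 ran from 0.24 without tt5-4 to 0.85 without tt5-3, and that of ASFT from 0.36 without tt5-4 to 0.98 without tt5-3. The pairs of members with an adjusted permutation p under 0.05 numbered 28 by Spearman's rho and 25 without the 2 farthest libraries, beside 27 by Pearson's r. The share of all gene pairs that would pass was not computed, so nothing is read from these counts either. Where leaving out a library left a locus with 1 allele, that allele was assumed to vary like the other groups. No paired analysis was possible because each allele had a single library and the labels give no replicate numbers shared between loci. The loci other than tt8 had 2 alleles each, and the single Col-0 sample allows no error for its levels.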

Other observations

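Outside the lipid polyester genes, Col-0 was above every mutant library at 1 of 8 abscisic acid response genes, RD29A (266.6 to 801.4 CPM in the mutants, 880.7 CPM in Col-0), at 1 of 7 tested root markers, PYK10 (214.4 to 1263.8 CPM in the mutants, 1297.1 CPM in Col-0), and at 1 of 6 shoot markers, LHCA1 (0.188 to 2.14 CPM in the mutants, 2.24 CPM in Col-0). These counts are near the 10.8% found over all tested genes. The seed storage genes CRA1 and CRU3 were higher in tt1 than in the other loci, with 6642.9 and 1147.5 CPM of CRA1 in tt1-4 and tt1-5 against 25.7 to 1324.6 CPM in the other mutants (edgeR adjusted p = 0.0376), and 6182.2 and 1109.8 CPM of CRU3 against 17.7 to 505.6 CPM (edgeR adjusted p = 0.0182). In ttg1 the late embryogenesis genes EM1 (419.1 and 287.6 CPM in ttg1-23 and ttg1-24, against 663.0 to 1332.6 CPM in the other mutants, edgeR adjusted p = 0.0477) and EM6 (159.6 and 146.4 CPM, against 209.1 to 949.7 CPM, edgeR adjusted p = 0.0403) were lower, as was RD29B (261.0 and 220.0 CPM, against 438.0 to 1038.9 CPM, edgeR adjusted p = 0.0394). These 5 calls were lost in 6 to 17 of 24 alternatives each, with edgeR adjusted p-values over the alternatives from 0.00671 to 0.765 and DESeq2 adjusted p-values from 5.37e-09 to 0.000107.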
